A study of Sus scrofa with 6 samples.

Results

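The genes described here are those of the pre-mRNA splicing machinery and of the hnRNP proteins, chosen by symbol: SRSF and SFRS genes, TRA2A and TRA2B, SNRP genes, SF3A and SF3B genes, U2AF1 and U2AF2, PRPF genes, HNRNP genes, PTBP1 and RBM genes followed by a number. The array named 77 such genes at 130 probe sets, of 6765 named genes and 23999 probe sets tested. U2AF1 had 0 probe sets, and 1 probe set whose annotation joined a member with another gene was left out. The members fell into 33 probe sets of 13 SR and TRA2 genes, 13 of 10 snRNP protein genes, 8 of 7 genes of the SF3A and SF3B complexes, 1 of U2AF2, 12 of 9 PRPF genes, 29 of 18 genes of hnRNPs and PTBP1, and 34 of 19 RBM genes.

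In 3 weaned Landrace x Large White sows, spermatozoa were placed by laparoscopy into the oviduct of one side and diluent into the other, so that on day 6 one uterine horn held embryos at the blastocyst stage (embryos, n = 3) and the other held oocytes (oocytes, n = 3). Horns with embryos had thus also been on the side that received semen, and the 2 exposures cannot be told apart in this design. Epithelial cells scraped near the utero-tubal junction gave 1 Affymetrix porcine array per horn, and arrays with the same number come from the same sow. A probe set is a group of short probes for one stretch of a transcript, and its signal, in arbitrary units on a linear scale, depends on the probes, so signals are compared between horns and not between probe sets.

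Splicing removes introns from pre-mRNA in the spliceosome, which is built from small nuclear ribonucleoprotein particles (snRNPs) and many further proteins. SR proteins and TRA2 proteins bind exons and mostly favour their inclusion, U2AF and the SF3A and SF3B complexes select the end of the intron and its branch point, PRPF proteins act in the tri-snRNP and in later rearrangements, and hnRNPs, PTBP1 among them, coat the transcript and often repress exons. Genes of SR proteins, TRA2B and hnRNPs are themselves known to make several transcript forms, so that probe sets of the same gene need not measure the same form.

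Samples and arrays were compared first. Median signals were 30.6 to 35.8 over the 6 arrays. The scraped cells carried epithelial markers (8 of 9 genes measured, summed signal 8427 to 11017 with oocytes and 8183 to 11413 with embryos), but stromal (5 of 7, 2289.6 to 4655 and 2142 to 4576) and smooth muscle markers (5 of 7, 561 to 2273 and 682 to 1549.8) were present too. Leukocyte markers (6 of 9) summed to 94.1 to 177 and 119 to 143, endothelial markers (6 of 6) to 223 to 303 and 220.2 to 348, red blood cell markers (2 of 4) to 362 to 966 and 423 to 942, and the 1 of 6 ciliated cell markers measured read 15.3 to 20.6 and 18.7 to 21.6. No marker was at 0, and 0 of those measured differed between the groups at an unadjusted p under 0.05, with or without the sow in the fit (limma). In such bulk samples fewer cells of a type and less RNA per cell cannot be told apart. The signal at the 5′ end over that at the 3′ end of the GAPDH and actin control transcripts, a measure of RNA and labelling quality, was -1.84, -2.78 and -2.61 (mean log2) in the oocyte horns of sows 1 to 3 and -2.39, -3.53 and -2.80 in their embryo horns. In every sow the embryo horn had the lower ratio, by 0.49 on average, and an unpaired two-sided exact permutation test, which cannot go below 0.1 with 3 against 3, gave p = 0.4.

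The splicing and hnRNP transcripts as a whole had nearly the same signal in the presence of embryos and of oocytes. Their log2 fold change (log2FC), the mean of the normalized log2 signals with embryos minus that with oocytes, had a median of 0.00 (quartiles -0.18 and 0.09, range -1.66 to 0.78), against 0.01 (quartiles -0.21 and 0.20) over all probe sets tested. Below 0 lay 63 members, where 49.2% of all probe sets did, and 67 lay above. Most members were bright: 112 of 130 lay above the median signal of all probe sets, and 102 (78.5%) were within 0.25 of 0 on the log2 scale, against 56.8% of all probe sets. Among probe sets above the median signal these shares were 85.7% and 80.8%. The 18 members below that median spread more widely, with a median of -0.43 against 0.02 for the others.

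Medians of the role groups were likewise near 0, at 0.02 for SR and TRA2 probe sets, 0.01 for snRNP proteins, -0.01 for SF3A and SF3B, 0.02 for PRPF factors, 0.00 for hnRNPs with PTBP1 and -0.07 for RBM proteins, while U2AF2 alone read 0.16. By sow, the median over all members was -0.02, 0.00 and -0.06 in sows 1, 2 and 3. No member passed after Benjamini-Hochberg adjustment over all probe sets, the smallest adjusted p being 1.00, nor did any other of the 23999 (limma, 0% called). At an unadjusted p under 0.05, 5 of the 130 members differed, against 2.88% of all probe sets (limma). All 5 were lower with embryos, in SRSF11, SF3B1, HNRNPA2B1, RBM18 and RBM5, where 1.59% of all probe sets were lower and 1.3% higher. With the sow as a block in the fit, 18 members passed that level, against 8.7% of all probe sets, of which 13 were lower (background 4.95%) and 5 higher (background 3.75%), and the smallest adjusted p of a member was 0.183 (limma). Counted without a test on the normalized values, 27 members (20.8%) were lower in the embryo horn of all 3 sows, against 14.8% of all probe sets, and 17 (13.1%) were higher in all 3, against 14.9%. All 3 embryo horns lay below all 3 oocyte horns for 9 members (6.92%, against 3.98% of all probe sets) and above them for 3 (2.31%, against 4.03%). Since most members were bright, the backgrounds above the median signal are also given. There 16 of 112 members passed with the block, 11 lower and 5 higher. Of all 11999 such probe sets 1426 did, 826 lower and 600 higher (limma). In the fit of all probe sets without the block, 4 of these 112 members were at that level, all lower. Of the 11999, 233 were, 141 lower and 92 higher (limma). Lower in all 3 sows were 20.5% of these members against 16.5%, and higher in all 3 were 15.2% against 16.5%. All embryo horns lay below all oocyte horns for 6.25% of these members against 3.40%, and above them for 2.68% against 3.23%.

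**Figure D1:**
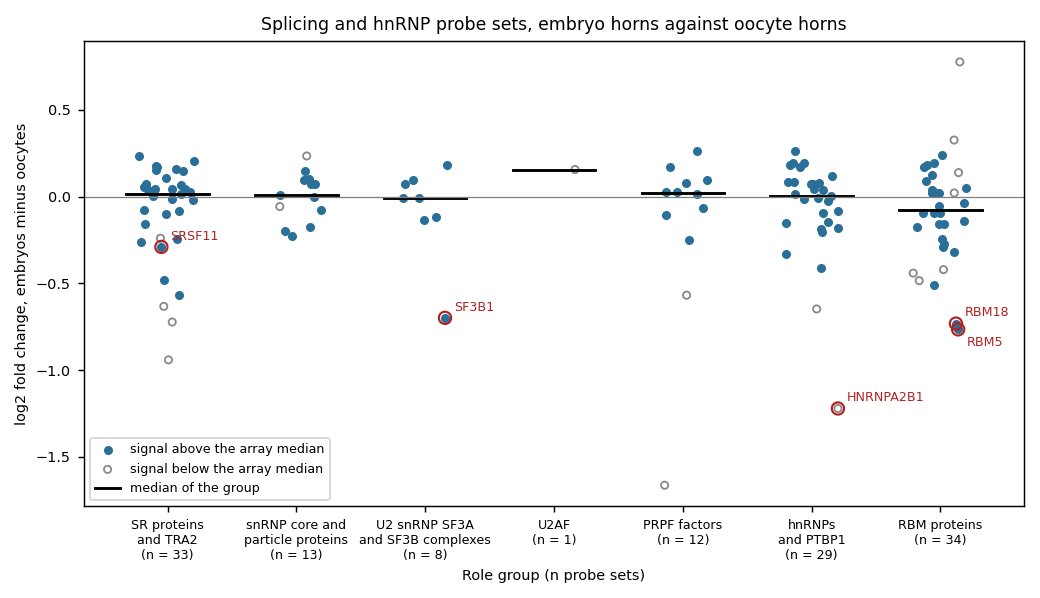
Log2 fold change, embryos minus oocytes, of each of the 130 probe sets by role group, with filled points for signals above the array median, open points for those below it and a bar at each group's median. The points gather around 0 in every group, the 5 circled and labelled probe sets at an unadjusted p under 0.05 all lie below 0, and the widest values belong to dim probe sets.

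SR proteins were measured at 29 bright probe sets of 33, and the log2FC of the 3 with the highest signals lay within 0.07 of 0. SRSF2, which helps to define exons early in spliceosome assembly, had signals of 938, 1565 and 1063 in the oocyte horns of sows 1 to 3 and 989.7, 1411 and 1274 in their embryo horns, which gave a log2FC of 0.07 (standard error, SE, 0.20, unadjusted p = 0.748, limma). SRSF3, the smallest SR protein, had 989, 771 and 853 with oocytes and 1002, 790.4 and 786 with embryos, which gave a log2FC of -0.02 (SE 0.16). In both genes the groups overlapped, and the sows differed by more than their horns. The 3 probe sets of SRSF1, the SR protein first known as a splicing factor and regulator of splice-site choice, lay within 0.08 of 0 (0.00, -0.08 and 0.05, SE 0.14, 0.19 and 0.20). SRSF6, an SR protein that acts on exon inclusion, was measured at 6 probe sets, of which 5 were above 0 (0.15 to 0.24) and the brightest was at -0.08 (SE 0.16). Higher signals with embryos in all 3 sows were seen at 3 of these 6, which carry related identifiers and may overlap, and none of the 6 had an unadjusted p under 0.05 with or without the block (limma).

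SRSF11, an SR-related protein found with early spliceosome components, gave values that depended on the probe set. Its brightest probe set read 844, 1131 and 1183 in the oocyte horns and 998, 1118 and 1043 in the embryo horns (log2FC 0.02, SE 0.14), and the second read 409, 723 and 711 and 513, 693 and 693 (0.07, SE 0.22). The third, Ssc.23780.1.S1_at, read 297, 361 and 324 with oocytes (mean 327 ± 32, SD, n = 3) and 283, 255 and 266 with embryos (268 ± 14.1). Every embryo horn was below every oocyte horn at this probe set, with the smallest difference in sow 1, whereas at the 2 brighter probe sets the groups overlapped and sow 1 was higher with embryos. The log2FC of the third was -0.29 (SE 0.13, unadjusted p = 0.0492 without and 0.0154 with the block, limma), and the p was under 0.05 in 6 of the 15 settings tried, the reported fit and the block among them. Settings in which it was not include the signals as deposited (unadjusted p = 0.0520) and leaving out oocytes 2, oocytes 3, embryos 2 or embryos 3 (unadjusted p = 0.0829 to 0.164, limma). The fourth, of the same identifier family with 103, 51.4 and 77.2 against 61.7, 35.9 and 68.3, was also lower in all 3 sows (-0.48, SE 0.31), and the fifth, at signals of 1.0 to 14.5, had an SE of 1.07.

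TRA2A and TRA2B, activators that bind purine-rich exon sequences, were read at 1 and 5 probe sets. TRA2A, with 1 probe set, differed more between sows than between horns, with signals of 145, 237 and 329 with oocytes and 174, 295 and 304 in embryo horns (log2FC 0.15, SE 0.31). The brightest TRA2B probe set read 661, 781 and 891 with oocytes and 641, 907 and 891 with embryos (0.06, SE 0.16). The next 3 were lower with embryos in every sow: 486, 399 and 603 against 409, 361 and 482 at the second, 440.2, 346 and 383 against 328, 301 and 344 at the third and 74.7, 34.3 and 39.2 against 51.0, 19.9 and 31.0 at the fourth. At the third the embryo horns lay below all oocyte horns, while at the second and the fourth the groups overlapped although each sow went the same way. Their log2FC were -0.24, -0.26 and -0.57 (SE 0.18, 0.14 and 0.38), with unadjusted p of 0.211, 0.0977 and 0.176 without and 0.0112, 0.0137 and 0.0217 with the sow as a block (limma). The fifth, dim at 7.9 to 19.3, was at -0.24 (SE 0.49).

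SRSF10, an SR protein that represses splicing when dephosphorylated, showed the same mixture over 5 probe sets. The brightest read 311, 309 and 394 against 356, 318 and 367 (0.04, SE 0.14), and the second, 167, 166 and 171 against 165, 139.9 and 149, was lower with embryos in each sow (-0.16, SE 0.14). The fourth, 55.6, 38.8 and 27.3 against 32.5, 23.2 and 21.4, was also lower in each sow, with a log2FC of -0.63 (SE 0.31, unadjusted p = 0.0768 without and 0.0242 with the block, limma). The third lay at 0.11 and the dimmest, at signals of 0.2 to 5.4, at -0.72 with an SE of 1.22. Single probe sets of SRSF4 (0.04), SRSF5 (0.16), SRSF7 (0.03) and SRSF12 (-0.01), and the 2 of SRSF9 (-0.10 and 0.04), completed the group, none at an unadjusted p under 0.05 with or without the block (limma).

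The protein components of the snRNPs gave log2FC near 0. All 13 probe sets were within 0.25 of 0, and 0 had an unadjusted p under 0.05 with or without the block (limma). SNRPD3, a protein of the Sm ring that surrounds most spliceosomal snRNAs, had 1152, 945 and 673 with oocytes and 1065, 1079 and 739 in embryo horns (log2FC 0.07, SE 0.23), with sow 3 lowest in both horns. SNRPD1, of the same ring, had 407, 478 and 504 and 421, 524 and 459 (0.01, SE 0.13). The brighter SNRPG probe set, also of the ring, had 445, 448 and 546 and 471, 487 and 477 (0.00, SE 0.12). The Sm ring genes thus had groups that overlapped at each of these probe sets. SNRPA1, a protein of the U2 snRNP, was 1 of the 3 members whose embryo horns all lay above the oocyte horns once normalized, by 0.09 (SE 0.11, unadjusted p = 0.438, limma).

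SF3B1, the largest SF3B subunit, which clamps the branch point region of the intron, was lower with embryos at 1 of its 2 probe sets. At Ssc.12295.1.A1_at the signal was 567, 366 and 358 in the oocyte horns (mean 430.3 ± 118, SD, n = 3) and 329.5, 198 and 269 in the embryo horns (265 ± 66.0). Every embryo horn lay below every oocyte horn, and the log2 ratio was -0.79, -0.90 and -0.40 in sows 1, 2 and 3. Its log2FC was -0.70 (SE 0.25), with an unadjusted p of 0.0217 without and 6.16e-05 with the sow as a block (limma), and 12 of 15 settings gave a p under 0.05. It was -0.46 without oocytes 1 (unadjusted p = 0.0753), -0.49 without embryos 2 (unadjusted p = 0.0803) and unchanged without the variance trend (unadjusted p = 0.0684), and with the 5′/3′ ratio of the controls in the fit it was -0.34 (unadjusted p = 0.0209, limma). The brighter SF3B1 probe set, Ssc.3000.1.S1_at, read 1178, 1705 and 1612 with oocytes and 1243, 1612 and 1583 with embryos, overlapping groups with a log2FC of -0.01 (SE 0.16). The remaining genes of the complexes lay near 0, from -0.13 in SF3B2 to 0.18 in SF3A1, with SF3A3 at -0.01 and SF3B6, which touches the branch point adenosine, at 0.10 (SE 0.15, 0.13, 0.11 and 0.13). U2AF2, which binds the polypyrimidine tract before the 3′ splice site, was dim, with 30.9, 35.3 and 19.2 with oocytes and 39.5, 23.1 and 32.5 with embryos, and its difference of 0.16 had an SE of 0.32.

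No PRPF probe set reached an unadjusted p under 0.05 in the fit without the sow (limma). PRPF4B, a kinase that acts on the tri-snRNP, had 375, 415 and 432 with oocytes and 393, 396 and 380.3 in embryo horns (log2FC -0.06, SE 0.11). PRPF4, a protein of the U4/U6 snRNP, differed by 0.03 and PRPF19, a ubiquitin ligase of the spliceosome, by 0.08 (SE 0.14 and 0.13). PRPF38B had probe sets that went opposite ways in every sow. The brightest read 85.7, 103 and 106 with oocytes and 104, 124 and 127 with embryos, higher in each sow (0.26, SE 0.17, unadjusted p = 0.150 without and 0.0432 with the block, limma), and the second was at 0.02 (SE 0.19). The third, the lowest member in log2FC (-1.66, SE 0.89), read 1.5, 7.8 and 1.7 with oocytes and 0.7, 0.7 and 1.4 with embryos, signals at the bottom of the array's range. PRPF39, a protein that joins the U1 snRNP, was likewise near 0 at its brighter probe set (0.09, SE 0.28) and lower in all 3 sows at the dimmer, which read 25.8, 25.4 and 16 with oocytes and 19.4, 11 and 15.6 with embryos (-0.57, SE 0.36). The other PRPF genes lay between -0.25 in PRPF31, which holds the U4/U6 particle and the tri-snRNP together, and 0.17 in PRPF18, which acts in the second step of splicing (SE 0.19 and 0.19).

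**Figure D2:**
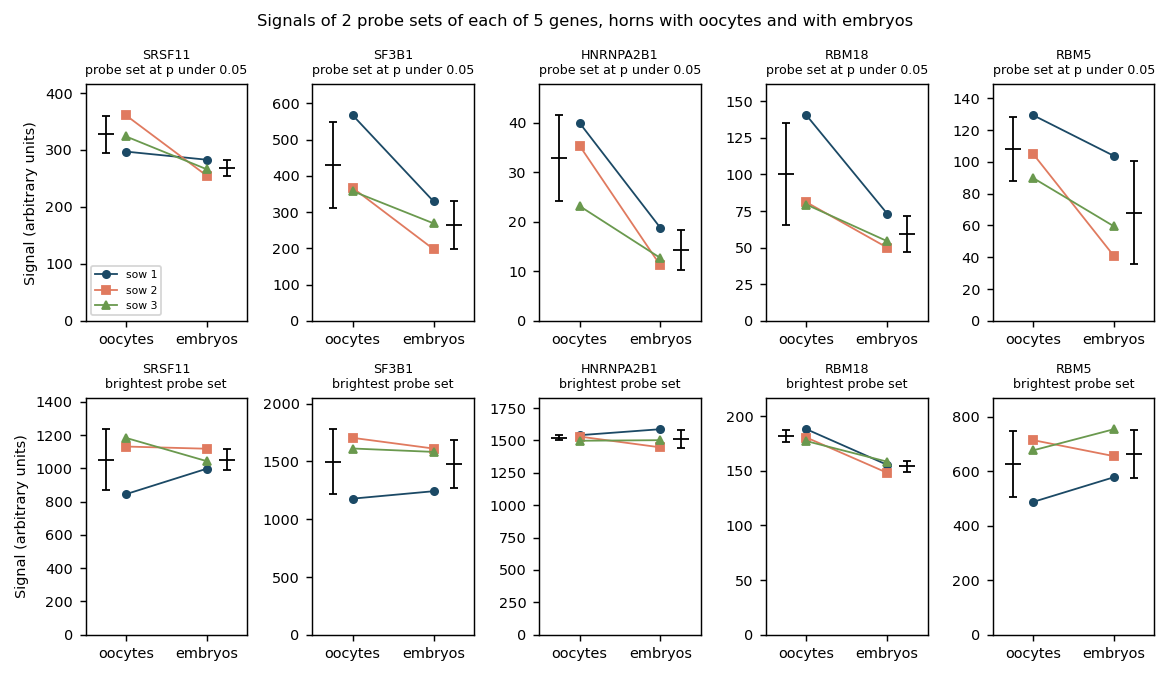
Signal in arbitrary units in the oocyte and embryo horn of each sow (lines join the horns of a sow, black bars give the mean and SD of 3 arrays) for the probe set at an unadjusted p under 0.05 (top) and the brightest probe set (bottom) of SRSF11, SF3B1, HNRNPA2B1, RBM18 and RBM5, each panel with its own scale from 0. In the top panels each embryo horn lies below the oocyte horn of its sow, and of the bottom panels this is so in all 3 sows for RBM18 alone.

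The hnRNPs held the brightest members, and 24 of their 29 probe sets, PTBP1 included, lay within 0.25 of 0. HNRNPK, which binds cytosine-rich sequences, read 1618, 1546 and 1567 with oocytes and 1614, 1177 and 1413 in the embryo horns, at the brighter of 2 probe sets (-0.18, SE 0.14, lower in all 3 sows after normalization) and was at 0.04 (SE 0.12) at the other. HNRNPF, which binds guanine runs, had 1242, 1121 and 1384 and 1561, 1287 and 1224 (0.12, SE 0.14). Neither gene had an unadjusted p under 0.05 with or without the block (limma), and their groups overlapped. HNRNPA2B1, which packages nascent transcripts and sorts some RNAs, was the member with the smallest p in the fit without the sow, at its dimmest probe set. At Ssc.27382.1.S1_at the signal was 40.0, 35.4 and 23.2 with oocytes (mean 32.9 ± 8.68, SD, n = 3) and 18.8, 11.2 and 12.7 with embryos (14.2 ± 4.03), all 3 embryo horns being below all oocyte horns. Its log2FC was -1.22 (SE 0.34, unadjusted p = 0.00612 without and 0.00328 with the block, limma), with log2 ratios of -1.15, -1.60 and -0.91 in sows 1, 2 and 3. It was -0.49 when 32 was added to every signal, and its p stayed under 0.05 in the 14 settings that tested it (highest 0.0269). The brightest HNRNPA2B1 probe set, Ssc.27885.1.S1_at, read 1541, 1530.1 and 1498 with oocytes and 1587, 1447 and 1502 with embryos (-0.01, SE 0.10). The second read 187, 135 and 179 and 198, 136 and 199, higher with embryos in each sow by a small amount (0.08, SE 0.20). The lower signal was thus seen at 1 of the 3 probe sets of HNRNPA2B1, the one below the median signal of the array.

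PTBP1, the repressor that binds polypyrimidine tracts, was measured at 3 probe sets. The brightest read 646, 791 and 667 with oocytes and 646, 806 and 764 with embryos. The next read 309, 354 and 291 with oocytes and 319, 241 and 283 with embryos, and the dimmest 149, 98.6 and 92.3 and 106, 62.1 and 87.8. At each the groups overlapped, and the dimmest was the one where every sow was lower with embryos. Values of log2FC were 0.07, -0.19 and -0.41 (SE 0.13, 0.15 and 0.25), and the last had an unadjusted p of 0.141 without and 0.0160 with the block (limma). Among hnRNPs higher with embryos in all 3 sows were HNRNPA1 (0.19), HNRNPH1 (0.18) and HNRNPUL1 (0.19), at unadjusted p of 0.0464, 0.0356 and 0.0338 with the block and of 0.249, 0.230 and 0.112 without it (limma). HNRNPUL1 read 394, 394 and 399.5 with oocytes and 451, 478 and 432 with embryos, so that its groups did not overlap, while its dimmer probe set, 48.4, 12.7 and 17.0 against 15.8, 13.3 and 13.4, was at -0.65 (SE 0.48). HNRNPC, which binds uridine tracts, was lower in each sow at its brighter probe set, with 1208, 1033 and 1212 with oocytes and 1064, 943 and 1111 with embryos (-0.15, SE 0.13, unadjusted p = 0.281 without and 0.0605 with the block, limma). The groups overlapped there, since the oocyte horn of sow 2 was below the embryo horns of the other sows. HNRNPD, which binds AU-rich elements, gave 0.08 and -0.02 at its 2 probe sets, and HNRNPDL, its close relative, 0.09 and 0.02 (SE between 0.10 and 0.14 for all 4). HNRNPA3, HNRNPAB, HNRNPH3 and HNRNPM lay between -0.09 and 0.04, and the single probe sets of HNRNPL and HNRNPU at 0.26 and -0.20 (SE 0.23 and 0.26). HNRNPR, whose 2 probe sets were both lower in all 3 sows, was at -0.10 and -0.15 (SE 0.13 and 0.17). The second of these probe sets, with SRSF11 Ssc.23780.1.S1_at, RBM18 Ssc.9676.1.S1_at and RBM39 Ssc.1011.1.S1_at, was among those the study listed as altered on these arrays. The list held 4 of the 130 members and 210 of the 24123 probe sets of the array. It was drawn from these same arrays, so the direction of these 4 is no independent evidence.

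RBM genes are grouped by a shared RNA recognition motif rather than by a step in splicing, and their median of -0.07, the lowest of the groups, was 0.04 without embryos 1. RBM18 was lower with embryos at both of its probe sets, with 140.4, 81.0 and 79.4 with oocytes (mean 100.3 ± 34.8, SD, n = 3) and 73.2, 50 and 54.4 with embryos (59.2 ± 12.3) at Ssc.9676.1.S1_at, and with 188, 180.5 and 177 (182 ± 5.59) and 156, 148 and 158 (154 ± 5.26) at the brighter Ssc.14096.1.S1_at. At both, every embryo horn lay below every oocyte horn. Values of log2FC were -0.73 (SE 0.26, unadjusted p = 0.0213 without and 5.39e-04 with the block, limma) and -0.25 (SE 0.13, 0.0905 and 0.0315). The first gave a p under 0.05 in 11 of 15 settings, not without oocytes 1 (-0.47, unadjusted p = 0.0756), embryos 2 (unadjusted p = 0.0651) or embryos 3 (unadjusted p = 0.0629), nor with the 5′/3′ ratio in the fit (-0.44, unadjusted p = 0.0618, limma). RBM5, a regulator of splicing of apoptosis genes, was lower at Ssc.21629.1.A1_at, with 129, 105 and 89.8 with oocytes (mean 108 ± 19.9, SD, n = 3) and 104, 40.7 and 59.4 with embryos (67.9 ± 32.4). Each sow was lower with embryos there, but the embryo horn of sow 1 exceeded the oocyte horn of sow 3, and the log2FC was -0.77 (SE 0.32, unadjusted p = 0.0401 without and 0.00230 with the block, limma). It gave a p under 0.05 in 9 of 15 settings, and left that side without oocytes 1 (unadjusted p = 0.118), oocytes 2 (unadjusted p = 0.0774), embryos 2 (-0.47, unadjusted p = 0.139) and embryos 3 (unadjusted p = 0.0981) with the 5′/3′ ratio in the fit (-0.37, unadjusted p = 0.138), and without the variance trend (unadjusted p = 0.0860, limma). The brightest RBM5 probe set, 488, 715 and 677 with oocytes and 579, 656 and 755 with embryos, was at 0.09 (SE 0.16), and the dimmest at 0.14 (SE 0.46).

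RBM39, a coactivator that resembles the U2AF large subunit, was below 0 at each of 3 probe sets (-0.04, -0.18 and -0.29, SE 0.14, 0.11 and 0.24). At the second the signals were 584, 612 and 602 with oocytes and 557, 494 and 546 with embryos, groups that did not overlap (unadjusted p = 0.152 without and 0.0524 with the block, limma), while at the first, 579.9, 644 and 816 and 678, 645 and 648, they did. RBM26 was mixed, at 0.19 for the brightest of 4 probe sets, -0.14 and -0.51 for the next and 0.33 for the dimmest (SE 0.15, 0.17, 0.25 and 0.46). The third of these, 79.1, 59.3 and 70.3 against 67.2, 36.0 and 47.6, was lower in all 3 sows (unadjusted p = 0.0695 without and 0.0120 with the block, limma). RBM3, a cold-inducible protein, followed the sow, with 387, 592 and 754 with oocytes and 416, 699 and 648 with embryos (0.04, SE 0.26). RBM42 was at 0.05, 0.02 and 0.78, where the SE of 0.15, 0.75 and 1.02 were larger at lower signals, the last probe set reading 0.9 to 11.4. RBM8A, the Y14 protein of the exon junction complex, went opposite ways at 2 bright probe sets, with 278, 253 and 296 against 240.5, 228 and 279 (-0.16, SE 0.14, lower in each sow) and 90.1, 79.2 and 114 against 116, 98.4 and 105 (0.18, SE 0.18). RBM25, a splicing regulator tied to the U1 snRNP, and RBM23 were higher with embryos in each sow, RBM23 reading 175, 241 and 210.4 and 205, 268 and 268 (0.24, SE 0.16, unadjusted p = 0.182 without and 0.0271 with the block, limma). RBM48, a component of the minor spliceosome, read 59.6, 60.3 and 56.4 with oocytes and 53.4, 49.2 and 40.4 with embryos, groups without overlap (-0.32, SE 0.20, unadjusted p = 0.153 without and 0.0935 with the block, limma). Of the 34 RBM probe sets, 23 lay within 0.25 of 0.

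Where a gene had several probe sets, the brightest was most often higher in log2FC than the rest. Of 31 member genes with 2 or more probe sets, the brightest was above the median of the others in 25 (80.6%), against 63.2% of the 2261 genes of the array with 2 or more. The median log2FC was 0.02 over the brightest probe sets and -0.23 over the gene medians of the others, where all such genes gave 0.01 and -0.12. With probe sets below the median signal left out, the shares were 78.3% of 23 member genes and 71.2% of 991 genes. Signs agreed among all probe sets of a gene in 11 of the 31 (35.5%, against 42.1% of the 2261) and were mixed in 20, while the range within a gene had a median of 0.34, against 0.44. Among probe sets above the median signal that range was 0.25 against 0.26, and signs agreed in 34.8% against 45.1%. Agreement also depends on the number of probe sets, and 12 of the 31 member genes had 3 or more, against 718 of the 2261. Over all signals, signs agreed in 47.4% against 51.3% of genes with 2, and in 16.7% against 22.4% of genes with 3 or more. Taken pair by pair, 19 of 53 dimmer probe sets (35.8%, against 24.6% of 3304 in all genes) lay below the brightest of their gene in the log2 ratio of all 3 sows, and 4 (7.55%, against 10.3%) lay above it. These are counts without a test, since probe sets of the same gene share the arrays.

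**Figure D3:**
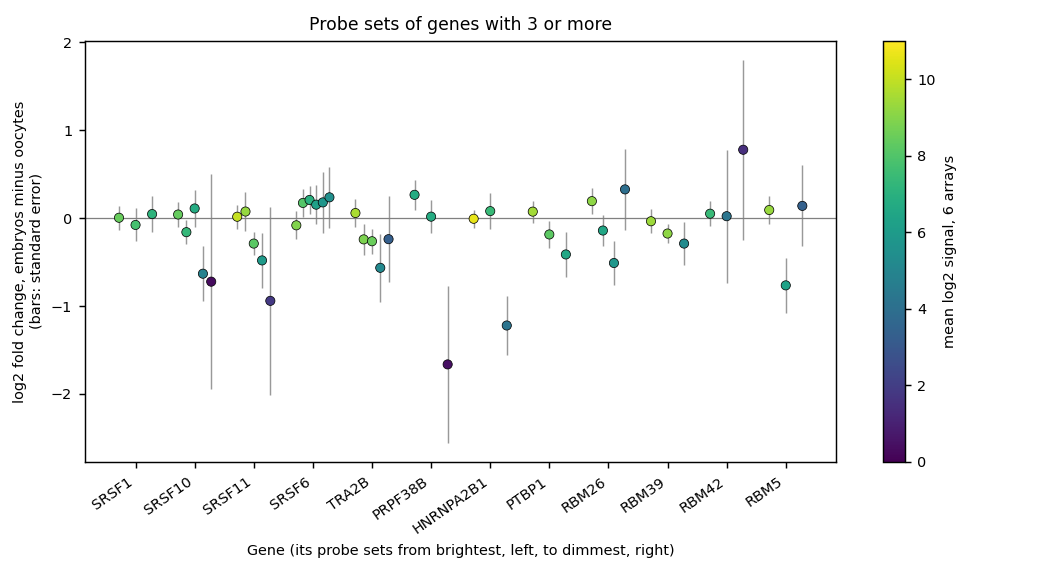
Log2 fold change, embryos minus oocytes, with its SE, for each probe set of the 12 member genes that have 3 or more, drawn from the brightest on the left to the dimmest on the right and coloured by mean log2 signal. The brightest probe sets sit near 0, from -0.08 in SRSF6 to 0.26 in PRPF38B, and of the 5 lowest values those of PRPF38B, HNRNPA2B1, SRSF11 and SRSF10 belong to probe sets below the median signal and that of RBM5, -0.77, to one above it.

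The 5′/3′ ratio of the control transcripts moved with these lower members. It was highest on the array of the oocyte horn of sow 1 and lowest on that of the embryo horn of sow 2. Of the 5 members at an unadjusted p under 0.05, all lower, 4 (80%) had their highest signal on the first and their lowest on the second of these arrays, against 27.8% of the 381 probe sets of the array that were lower at that level. Of the 13 members lower with the block, 10 (76.9%) did so, against 45.4% of the 1187 probe sets lower by that fit. Several of the 13 share a gene, as in TRA2B, SRSF11 and RBM18, and are not independent of each other. The sets also differed in brightness, with 11 of the 13 and 826 of the 1187 above the median signal. The summed stromal markers were also highest on the array of the oocyte horn of sow 1 and lowest on that of the embryo horn of sow 2. They read 4655, 2289.6 and 3294 in the oocyte horns and 4576, 2142 and 3278 in the embryo horns. The smooth muscle markers were highest on the former array (2273, 561 and 923 with oocytes, 1549.8, 682 and 1015 with embryos). The ratio was also used as a covariate, chosen after the data were seen, in a fit without the sow. With it the median of the 13 went from -0.51 to -0.26, with each still below 0. At an unadjusted p under 0.05 were 2 of the 13, against 5 with neither the sow nor the ratio in the fit (limma). The 1187 probe sets lower with the block went from a median of -0.52 to -0.31. Of these, 1062 were still below 0 and 258 were at that level. The median of the 5 went from -0.73 to -0.37, and that of the 381 from -1.32 to -1.04. Over all 130 members the median went from 0.00 to -0.05, and 81 lay below 0 with the ratio in the fit, against 63 without it. Of all 23999 probe sets, 12184 lay below 0 with the ratio and 11802 without it. The part of RNA quality was not tested beyond this fit, and that of stromal and smooth muscle cells was not tested.

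The sows differed among themselves in many members, as in the array at large. The range of the 3 sow means exceeded the difference between the groups in 111 of the 130 members (85.4%), a share near that of all probe sets (83.7%). Such a range is often the larger even where sows do not differ, so this share alone does not show that they do. Both horns of sow 1 held the lowest signals of all 6 for 30 members (23.1%, against 15% of all probe sets), and both horns of sow 3 the highest for 19 (14.6%, against 8.73%). Among probe sets above the median signal these shares were 25% against 19.8% and 17.0% against 9.82%. Both horns of sow 2 were the lowest for 18 members (13.8%, against 10.9%) and the highest for 10 (7.69%, against 11.6%). Sow 1 was the highest in both horns for 17 (13.1%, against 13.9%) and sow 3 the lowest for 4 (3.08%, against 8.27%). Of 33 SR and TRA2 probe sets, 10 (30.3%) were lowest in sow 1, 10 lowest in sow 2 and 10 highest in sow 3, and of the 29 hnRNP probe sets 1 was lowest in sow 1, 7 (24.1%) lowest in sow 2, 6 (20.7%) highest in sow 1 and 6 highest in sow 3. TRA2A was higher in both horns of sow 3 than in those of the other sows. SRSF12 read 62.0, 58.0 and 108 with oocytes and 69.6, 54.3 and 100.5 with embryos, sow 3 being above the others in both horns. The dimmer HNRNPH2 probe set read 115, 48.0 and 104 and 117, 60.8 and 94.5, with sow 2 the lowest in both horns, and SNRPD3 was lowest in sow 3. These are descriptions of 3 animals, and no test between sows was made.

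**Figure D4:**
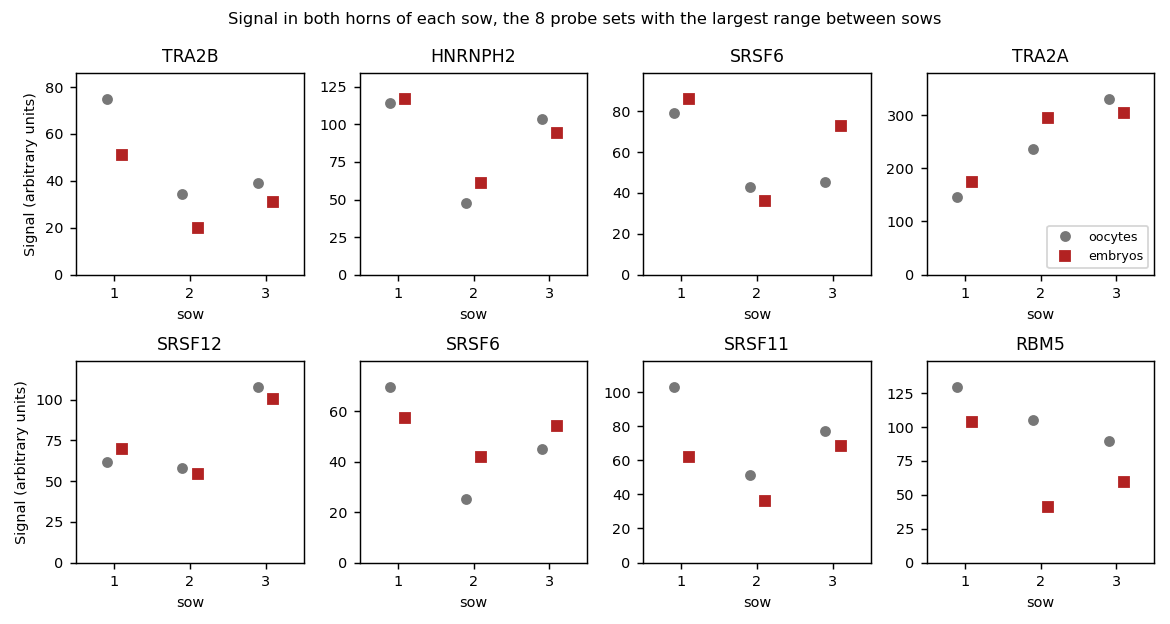
Signal in arbitrary units in the oocyte horn (grey circles) and embryo horn (red squares) of each sow, from 0, for the 8 members above the median signal with the largest range between sow means, SRSF6 being shown at 2 probe sets. In TRA2A and SRSF12 both horns of sow 3 lie above those of the other sows, and in HNRNPH2 both horns of sow 2 lie below them. In TRA2B, SRSF11 and RBM5 the embryo horn is the lower one in every sow.

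A list of 109 further splicing genes that the rule leaves out, such as RNA helicases, LSM proteins and exon junction proteins, was read from the same fit. On the array 63 of them had 102 probe sets, whose log2FC had a median of -0.01. At an unadjusted p under 0.05, 1 was lower and 1 higher, where 1.59% and 1.3% of all probe sets were (limma). SRRM1, a coactivator that links SR proteins, read 99.7, 47.7 and 57.4 with oocytes and 47.0, 23.7 and 44.7 with embryos (-0.82, SE 0.34, unadjusted p = 0.0392, limma), the embryo horns being below all oocyte horns. The brighter SRRM1 probe set was near 0 (0.03, SE 0.12). MAGOHB, a component of the exon junction complex, read 59.2, 79.6 and 58.5 and 86.0, 148 and 80.9 (0.63, SE 0.27, unadjusted p = 0.0496, limma), higher with embryos in each sow. With the sow as a block, 11 of the 102 were lower at an unadjusted p under 0.05, where 4.95% of all probe sets were, and 2 were higher, where 3.75% were, with a smallest adjusted p of 0.253 (limma). Of the 11 lower, 3 belonged to SYNCRIP and 2 to PTBP3, relatives of HNRNPR and PTBP1. SYNCRIP was not lower at all of its probe sets. Its brightest was at 0.0009 (SE 0.14) and another at -0.003 (SE 0.20), with unadjusted p of 0.993 and 0.980 with the block (limma).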

How the data were processed

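Epithelial cells of 6 uterine horns from 3 sows on day 6 were measured on 6 arrays, 3 with embryos and 3 with oocytes. The intensity signals per probe set were made by the authors with MAS5 5.1 and are deposited as linear values with a trimmed mean of about 100.02 on every array. Detection calls, single probes and the mixed model of the methods were not used here. Precision is limited by the number of arrays.

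The log2 values, with a floor of 0.1 on the signal, were normalized with cyclic loess. After removal of 124 controls, 23999 probe sets were fitted without a filter using limma 3.58.1 in R 4.3.3 (group as the term, variance trend, Benjamini-Hochberg adjustment). The fit was first tested on simulated data that held no differences between sows, so that test cannot show how the sow block behaves here. Counts and plots were made with Python 3.11.15 and matplotlib 3.10.9. Symbols come from the array's annotation (10069 probe sets with 1 symbol), and 77 of 77 member genes were found in a current gene table. Brightness is the mean log2 signal over the 6 arrays.

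Arrays of the same number were taken as the same sow, because per-animal ratios in the methods equal those of these arrays. Within the 3 pairs, the arrays' deviations from the mean of their group had correlations of 0.207, 0.173 and 0.100, and the sow was a block in an alternative fit. Other alternatives were quantile or median scaling in place of loess, the deposited signals with neither, an offset of 32, a filter at the median signal, no variance trend, each array left out in turn, and, chosen after the data were seen, the 5′/3′ ratio of the controls as a covariate. None of these others held the sow.

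The members and gene lists were chosen with earlier results of these data known. Named were members at an unadjusted p under 0.05, the 3 brightest of each role group, genes with 3 or more probe sets or with probe sets opposite in all 3 pairs, U2AF2, PTBP1, TRA2A, TRA2B, members on the study's list, and other splicing genes at an unadjusted p under 0.05. Further genes were named after their values were seen. No sequences are shown.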

Additional observations from a re-analysis of the deposited data

How the results depend on the processing

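No probe set of the array passed after adjustment in any of the 15 settings, the smallest adjusted p being 0.0810, with the block (limma). Of the 18 members at an unadjusted p under 0.05 with or without the block, 0 changed sign in a setting, and over these members and settings 211 values kept their side of that level, 17 passed it in addition and 22 no longer did. Of the other 112 members, 66 changed sign in at least 1 setting. The 5 members at that level became 18 with the replicate block, 3 with probe sets above the median signal only and 2 without the variance trend, and 1 to 8 when an array was left out: 1 without embryos 2, 2 without oocytes 1 or embryos 3, and 8 without embryos 1. The 2 other splicing probe sets at that level became 13 with the replicate block, 4 with the 5′/3′ ratio as a covariate, 1 with the signals as deposited, with probe sets above the median signal only or without the variance trend, and 0 to 7 when an array was left out. The median log2 fold change of the members, 0.00, was -0.054 with the 5′/3′ ratio as a covariate and -0.059 to 0.0088 when an array was left out. The difference in the 5′/3′ ratio, -0.49, ranged from -0.75 to -0.18 when an array was left out. The causes of these moves were not tested. Counts over all 3 pairs could not be given with an array left out; over the other settings 23 to 29 members were lower and 14 to 19 higher in all 3 sows, and 15 to 22 genes had probe sets of mixed sign, or 16 to 23 with an array left out. The median of the RBM probe sets, -0.07, was 0.04 without embryos 1. Signals near the bottom of the array, as in PRPF38B, SRSF10 and RBM42, carry standard errors near 1 and limit what can be read from those probe sets.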
